A study of Mus musculus with 4 samples.

Results

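Aminoacyl-tRNA synthetases join each amino acid to its tRNA, and 10 genes for the cytosolic enzymes were followed across 1 mouse embryonic stem (ES) cell culture and 3 extraembryonic endoderm (XEN) cell cultures. The 10 genes are Wars, Sars, Nars, Gars, Aars, Mars (Mars1 in the annotation), Iars, Cars, Yars and Eprs. They were taken by name, as the probe sets annotated to exactly 1 of these symbols or to the same symbol with a final 1. This gave 13 of 12488 probe sets and 10 of the 8251 genes on the array with a single symbol. Wars had 3 probe sets and Yars 2. The ES culture was the R1 line, undifferentiated, on gelatin with LIF. XEN cells are stem-like cells of the lineage that lines the yolk sac. IM8A1-I and IM8A1-II were cultures of 1 XEN line, IM8A1, of the PO strain at passage 27. The former was on gelatin in 70% EMFI-CM (an abbreviation the labels do not explain) and the latter had spent 4 days on plastic in RPMI 1640 medium containing 20% FBS. XEN1-3, of the ICR strain at passage 18, was on gelatin in 70% EMFI-CM. Each culture gave total RNA for 1 Affymetrix MG_U74Av2 array, so the XEN group of 3 arrays holds 2 lines. The labels give no other allele or agent.

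A synthetase activates its amino acid with ATP and then transfers it to the matching tRNA, which carries it to the ribosome. The enzymes fall into classes I and II by the fold of their catalytic domain. Several of them, among them the products of Iars, Mars1 and Eprs, sit in a large multi-synthetase complex, while others work as free enzymes. Genes for several cytosolic synthetases are known targets of ATF4, the transcription factor of the integrated stress response, which also drives amino acid synthesis and uptake genes. This background is not a result of these arrays.

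Cell identity fitted the labels. All 6 ES marker genes fixed for this work (such as Pou5f1, Sox2 and Nanog) fell in XEN and all 8 XEN marker genes (such as Gata6, Sox17 and Foxa2) rose, in limma's test at an adjusted p under 0.05. Of the markers of other cell types, 6 of 10 fibroblast genes and 4 of the 7 trophoblast genes on the array reached the background limit of 27.3 units on any array, and 0 rose (1 fell in each list by its brightest probe set, and a further Col1a1 probe set fell too; at an unadjusted p under 0.05, 1 fibroblast and 0 trophoblast genes were higher). The ES array came from another chip lot and run day than the 3 XEN arrays, so cell type cannot be told apart from lot or run day. The run record of XEN1-3 carries a message that no fluid was detected. As a measure of RNA integrity, 3' over 5' control signal lay between 1.21 and 1.25 for actin and between 0.954 and 1.08 for Gapdh. Signal is in arbitrary units with no absolute scale, and levels of different genes were not set against each other.

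Among the 10 genes, Wars rose in XEN cells and the other 9 did not pass the test. Within the XEN group the 10 genes shared an order: each had its highest XEN signal in IM8A1-I. Across all tested probe sets IM8A1-I was the highest of the 3 XEN arrays for 29.1%. The 10 genes were chosen with earlier results of these arrays known, so their shared order is a description. Signal on a bulk array follows both the number of cells of a type and the RNA in each cell, and these cannot be told apart here.

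**Figure D1:**
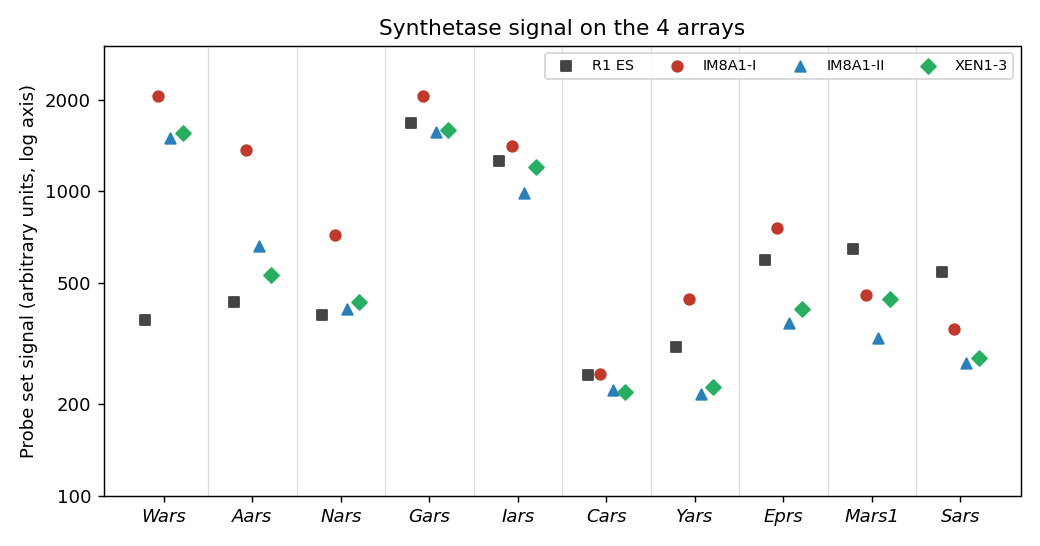
Signal of the 10 synthetase genes (brightest probe set of each, arbitrary units, log axis) on the R1 ES array and the 3 XEN arrays, ordered by the XEN minus ES difference. Wars separates all XEN arrays from ES (1501 to 2057 against 379), and the IM8A1-I point is the highest XEN point for every gene shown.

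Wars encodes tryptophanyl-tRNA synthetase, a class I enzyme that is also secreted and is inducible by interferon-gamma. Its brightest probe set, 98606_s_at, stood at 379 units on the ES array and 2057, 1501 and 1549.9 on the IM8A1-I, IM8A1-II and XEN1-3 arrays. The XEN values, with a mean of 1703 ± 308 (SD, n = 3), all lay at least 3.88-fold above the 1 ES value. All 3 XEN arrays lay above ES, by any amount, for 39% of tested probe sets. The difference was 2.12 ± 0.30 on the log2 scale (SE; 95% interval 1.39 to 2.86; limma adjusted p = 0.0144). The share of all 8582 tested probe sets called higher in XEN was 5.58%, against 1 of the 10 genes. The suffix of this probe set marks probes that can match more than 1 transcript.

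The other Wars probe sets also lay higher in every XEN array than in ES, without passing. Probe set 98605_at read 221 units on the ES array and 1515, 849.5 and 547 on the IM8A1-I, IM8A1-II and XEN1-3 arrays (1.96 ± 0.56 in log2, limma adjusted p = 0.0798). Probe set 161337_f_at read 66.3, 212, 133 and 159 in the same order (1.19 ± 0.34, limma adjusted p = 0.0803). The first varied more among the XEN arrays than the other Wars probe sets, and passed when XEN1-3 was left out (adjusted p = 0.0147).

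Interferon response genes were set beside Wars because of its known induction by interferon-gamma. Of 10 tested, 5 fell and 1 rose, where 5.05% of all tested probe sets were called lower and 5.58% higher. Irf1, a transcription factor of that response, was at 220.5 units in ES and 12.3 ± 9.06 in XEN, at least 8.08-fold lower. Gbp2, a guanylate-binding protein, was at least 6.09-fold lower, and the immunoproteasome subunit gene Psmb8 at least 3.86-fold. These bounds set the ES signal against the background limit, since all XEN values lay under it. The member that rose was B2m, the light chain of MHC class I, from 192 to 1878 ± 368 units. Wars changed in the direction of B2m, and opposite to Irf1, Gbp2 and Psmb8. A part of interferon in the Wars values was not tested.

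Aars and Nars were the other genes above ES in all 3 XEN arrays, so that 3 of 10 genes did this with Wars included, against 39% of all tested probe sets. Aars, for the class II alanyl enzyme, read 432 units on the ES array and 1367, 663 and 529.7 on the IM8A1-I, IM8A1-II and XEN1-3 arrays. The first of the XEN values was well above the rest, and the estimate of 0.84 ± 0.54 in log2 had a wide interval, from -0.49 to 2.18 (limma adjusted p = 0.349). Nars, for the class II asparaginyl enzyme, read 391, 717, 409 and 434 units in the same order. Its IM8A1-II and XEN1-3 values lay within 1.11-fold of ES, and the difference was 0.36 ± 0.39 (interval -0.61 to 1.32, limma adjusted p = 0.584).

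Sars and Mars1 lay below ES in all 3 XEN arrays, a pattern of 34% of tested probe sets, and neither passed. Sars, for the class II seryl enzyme, read 545 units on the ES array and 353, 273 and 282 on the IM8A1-I, IM8A1-II and XEN1-3 arrays. The difference of -0.83 ± 0.29 in log2 had an unadjusted p of 0.0283 and an adjusted p of 0.121 in limma, where 5.05% of tested probe sets were called lower. Mars1, for the class I methionyl enzyme of the multi-synthetase complex, read 647, 457, 328 and 441 units in the same order, and its difference was -0.66 ± 0.31 (limma adjusted p = 0.214). For both genes IM8A1-I was the XEN array nearest to ES.

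The remaining genes straddled the ES level. Gars, for the glycyl enzyme that serves both the cytosol and mitochondria, read 1680.3 units on the ES array and 2060.2, 1562 and 1589.9 on the IM8A1-I, IM8A1-II and XEN1-3 arrays. Iars, for the isoleucyl enzyme, read 1261, 1404, 986 and 1201 units, and Cars, for the cysteinyl enzyme, 249, 252, 223 and 219. Eprs, whose product charges both glutamate and proline, read 593, 756, 369 and 409.6. Yars, for the tyrosyl enzyme, read 308, 443, 216 and 227. In each of these 5 genes ES lay between IM8A1-I on the upper side and the other XEN cultures on the lower side, although for Cars the step from ES to IM8A1-I was 0.01 in log2. The XEN minus ES estimates ran from -0.28 (Eprs) to 0.04 (Gars). Their 95% intervals allow larger differences, from -0.66 to 0.74 for Gars and from -1.40 to 0.83 for Eprs. The dim second probe set of Yars, 162093_at, read 46.0, 50.5, 57.8 and 66.3 units and did not follow the first.

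**Figure D2:**
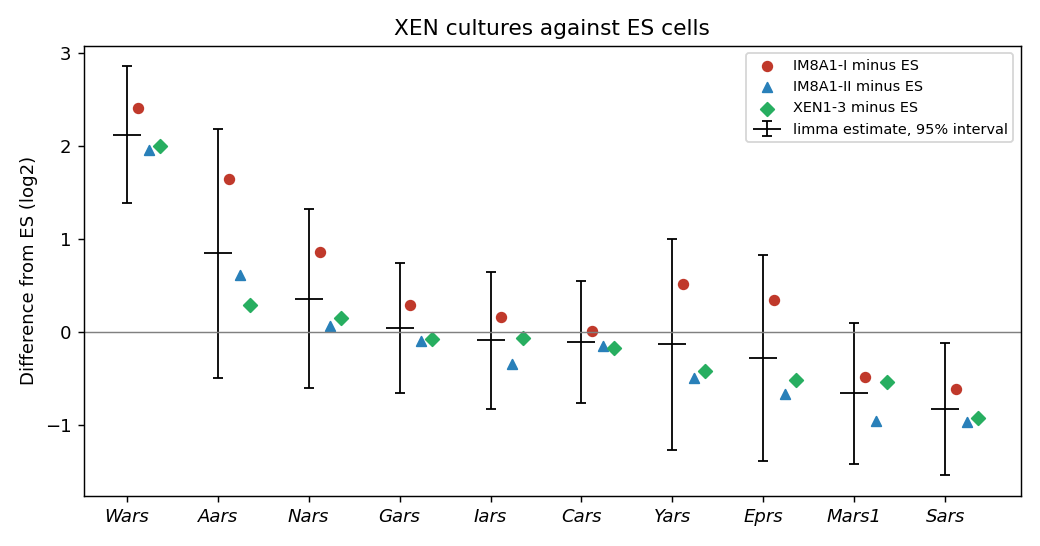
Difference of each XEN array from the ES array (points, log2) for the 10 genes, with limma's XEN minus ES estimate and its 95% interval (black bars). The Wars interval, 1.39 to 2.86, lies above 0. That of Sars, -1.54 to -0.13, also excludes 0, but the intervals are not adjusted over all probe sets, and Sars did not pass (limma adjusted p = 0.121).

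The second comparison set the same XEN line in its culture conditions side by side. All 10 genes were lower in IM8A1-II than in IM8A1-I, against 48.4% of tested probe sets, with 1 array on each side and no test. As the genes were chosen with earlier results of these arrays known, this count is a description. The median difference was -0.48 in log2, against 0.01 over all genes tested. Aars, Eprs and Yars were at least 2-fold lower, at 2.05-fold, 2.02-fold and 2.01-fold, against 2.47% of tested probe sets at least 2-fold lower, and 0 genes were at least 2-fold higher (3.51% of tested probe sets). These 3 lie just past the 2-fold line, and 0 genes lay past it once the added offset was the 50th percentile of all values. By brightest probe sets, Nars came next at 1.74-fold, and the smallest step was that of Cars, 1.12-fold. Wars was 1.37-fold lower by its brightest probe set, 1.77-fold by 98605_at and 1.55-fold by 161337_f_at.

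Against XEN1-3, which differed from IM8A1-I in line, strain and passage but not in its labelled medium, all 10 genes were also higher in IM8A1-I. Here 46.3% of tested probe sets were lower in XEN1-3. The median difference was -0.39, against 0.04 over all genes tested. Aars was 2.55-fold lower in XEN1-3 and was the single gene past 2-fold by its brightest probe set (4.53% of tested probe sets), followed by Yars at 1.91-fold and Eprs at 1.83-fold. In the other direction 0 genes reached 2-fold (4.58% of tested probe sets). Mars1 differed by 1.04-fold. The Wars probe sets disagreed in size, at 1.32-fold for the brightest, 1.31-fold for 161337_f_at and 2.74-fold for 98605_at, which is wider than the Aars step. Both comparisons share the IM8A1-I array, so they are not independent of each other. XEN1-3 and IM8A1-II lay closer together, with differences from -0.32 (Aars) to 0.41 (Mars1) and a median of 0.06. Over the 13 probe sets, 12 were highest in IM8A1-I among the XEN arrays, the exception being the dim Yars probe set.

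The order among the XEN arrays also shaped the comparison with ES. In IM8A1-I 2 of the 10 genes lay below ES, against 48.1% of tested probe sets, with a median difference of 0.32 in log2 over the 10. Wars and Aars were at least 2-fold above it (14.2% of tested probe sets). In each of the other XEN arrays 7 of the 10 lay below ES (47.1% of tested probe sets in IM8A1-II and 46.4% in XEN1-3). The medians there were -0.25 and -0.13, and only Wars was at least 2-fold above ES (14.3% and 13.9% of tested probe sets). In each of the 3 XEN arrays 0 of the 10 genes were at least 2-fold below ES (14.2%, 13.4% and 13.1%). These 3 sets of differences share the ES array.

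Promoters were read for the genes that shared this order, because ATF4 and its C/EBP partners are known to bind a composite element with the core TGATGNAA. RefSeq windows of 300 bases (build GRCm38.p6, 250 bases before the annotated start and 50 from it on) were found for 7 of the 10 genes, all but Wars, Cars and Nars. The core, searched on both strands, occurred in 4 of these 7 windows, in 1 of 6 windows of the other cytosolic synthetases, and in 3.97% of all 32851 windows. The windows with a match were those of Aars, Gars, Iars and Yars, and those of Eprs, Sars and Mars1 held none. As the 10 genes were chosen with earlier results of these arrays known, these counts are a description. A match is a run of letters, not a shown binding site. The 250 bases before the start are printed for Aars, which was 2.05-fold lower in IM8A1-II and has an upstream match, for Gars, the other gene with an upstream match, and for Eprs, which was 2.02-fold lower in IM8A1-II with no match. Lower case marks the window, and capitals mark the core, which reads TTNCATCA where it lies on the opposite strand.
Aars, chr8:111033592-111033841, plus strand: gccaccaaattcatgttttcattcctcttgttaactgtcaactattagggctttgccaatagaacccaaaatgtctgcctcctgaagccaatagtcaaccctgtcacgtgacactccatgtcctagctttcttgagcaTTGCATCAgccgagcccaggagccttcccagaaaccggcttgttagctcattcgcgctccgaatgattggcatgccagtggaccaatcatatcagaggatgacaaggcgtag
Gars, chr6:55037751-55038000, plus strand: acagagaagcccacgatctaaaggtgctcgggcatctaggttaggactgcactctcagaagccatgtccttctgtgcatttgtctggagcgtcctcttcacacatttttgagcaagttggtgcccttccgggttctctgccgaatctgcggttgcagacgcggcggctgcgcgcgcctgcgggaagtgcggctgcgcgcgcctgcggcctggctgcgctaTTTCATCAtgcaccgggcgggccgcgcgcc
Eprs, chr1:185362794-185363043, plus strand: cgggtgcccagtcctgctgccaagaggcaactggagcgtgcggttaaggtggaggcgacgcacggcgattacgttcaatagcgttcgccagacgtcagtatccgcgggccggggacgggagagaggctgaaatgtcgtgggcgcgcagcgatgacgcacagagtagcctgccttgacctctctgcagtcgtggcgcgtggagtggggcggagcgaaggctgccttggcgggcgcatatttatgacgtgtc
The remaining matches lie just inside the transcribed part, and 24 bases around each are printed. The capitals are alike because that core was searched for, and the bases beside it were not compared. In Yars the core begins 3 bases after the start base and reads on the strand of the gene, whereas in Iars and in the second match of Aars it begins 7 and 9 bases after the start base on the opposite strand.
Yars, chr4:129189898-129189921, plus strand: agctcagcTGATGCAAcccgacgg
Iars, chr13:49682129-49682152, plus strand: tgtcagtaTTGCATCAcctccaga
Aars, chr8:111033843-111033866, plus strand: gggtcactTTTCATCAgagcgctc
The genes with a match were spread over the range of differences between the IM8A1 cultures, from -0.40 in log2 (Gars) to -1.03 (Aars), and the genes without one ran from -0.36 (Sars) to -1.01 (Eprs).

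**Figure D3:**
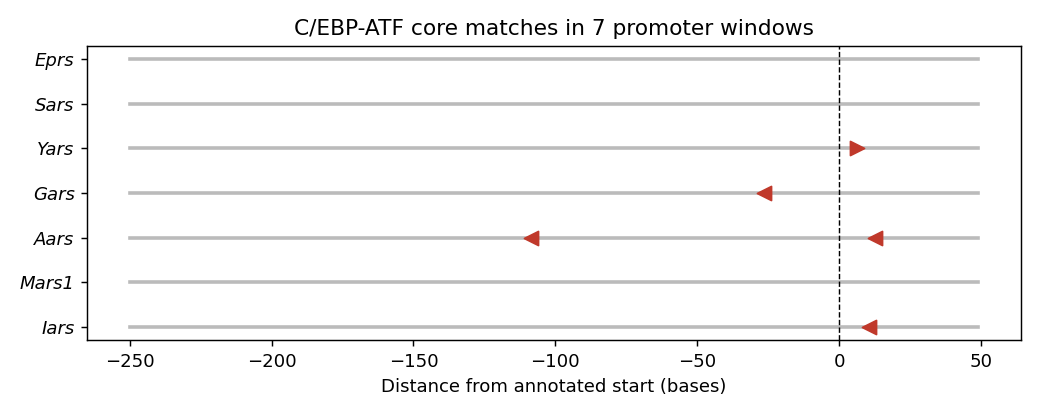
Positions of TGATGNAA matches (triangles, pointing right where the core reads on the strand of the gene and left where it reads on the opposite strand) in the 7 RefSeq promoter windows, by distance from the annotated start in bases. By first base, Aars carries 2 matches, at -112 and 9, Gars 1 at -30, and the matches of Yars and Iars begin within 10 bases of the start, at 3 and 7.

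The cytosolic synthetases outside these 10 shared the order only in part. Of 9 tested genes, 0 were called in limma's test (also 0 at an unadjusted p under 0.05), with a median XEN minus ES difference of -0.34. Over all tested probe sets 5.58% were called higher and 5.05% lower. In IM8A1-II 7 of 9 were lower than in IM8A1-I (48.4% of tested probe sets), but 4 of 9 were lower in XEN1-3 (46.3%). The highest XEN signal was in IM8A1-I for 4 of 9, against 10 of 10 and 29.1% of tested probe sets. Rars, for the arginyl enzyme, and Tars, for the threonyl enzyme, followed the order most widely and were named after their values were seen. Rars read 1148 units on the ES array and 2038, 797 and 467 on the IM8A1-I, IM8A1-II and XEN1-3 arrays, and Tars 841, 1066, 481 and 567. Tars was the gene of this list with a promoter match, 15 bases before its start. Hars, for the histidyl enzyme and also named after its values were seen, read 183, 165, 122 and 366 units. It was lower in IM8A1-II than in IM8A1-I, as the 10 genes were, but highest in XEN1-3. The 10 genes were chosen with earlier results of these arrays known, so their contrast with the other 9 is a description.

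Complex scaffolds and mitochondrial enzymes were mostly lower in XEN without passing. Aimp1 and Aimp2, scaffolds of the multi-synthetase complex, had differences of -0.69 and -0.94 in log2 (limma adjusted p of 0.185 and 0.112). Of 5 tested mitochondrial synthetases, 0 were called (1 lower at an unadjusted p under 0.05), where 5.58% of tested probe sets were called higher and 5.05% lower. In all 3 XEN arrays 4 lay below ES (34% of tested probe sets), with a median of -0.56. Their median between the IM8A1 cultures was -0.01, and that of XEN1-3 against IM8A1-I was -0.21. The highest XEN signal was in IM8A1-I for 3 of 5, against 29.1% of tested probe sets. Rars2, 1 of these, read 577 units on the ES array and 428, 235 and 183 on the IM8A1-I, IM8A1-II and XEN1-3 arrays.

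**Figure D4:**
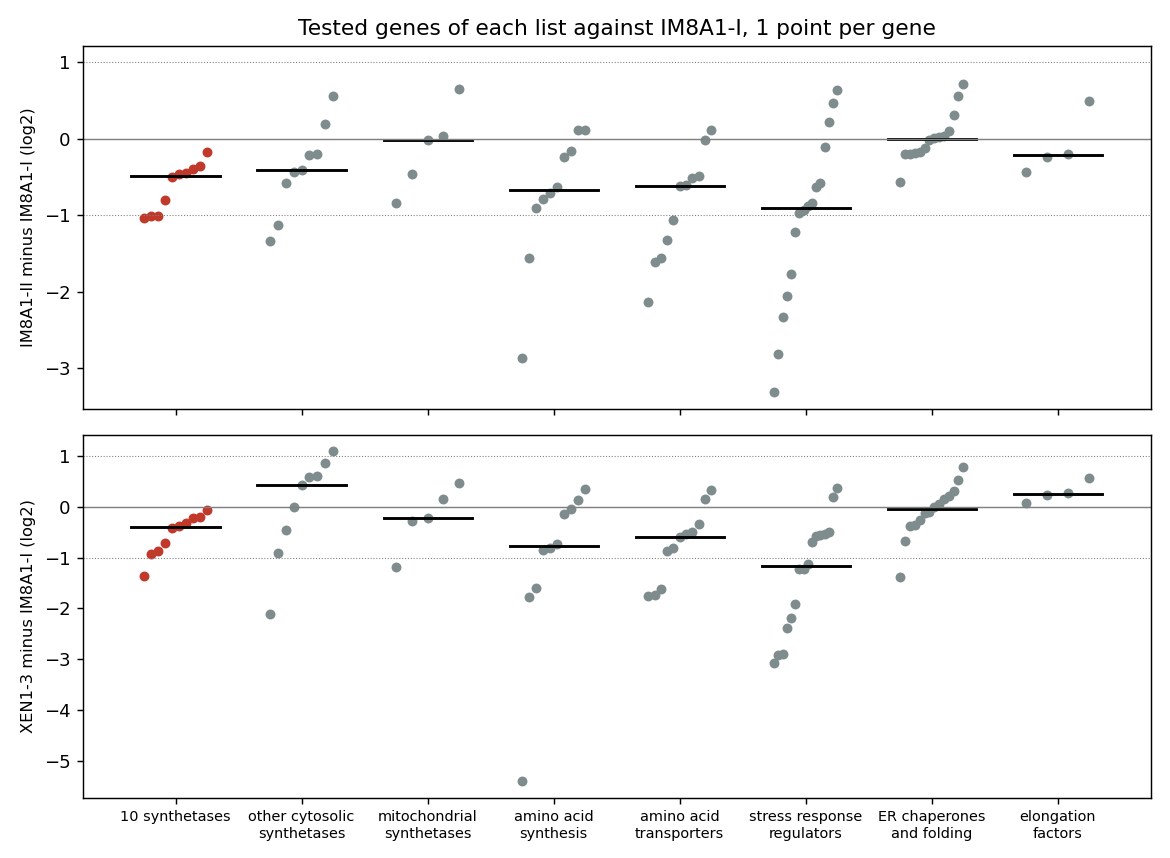
Differences of IM8A1-II (upper panel) and XEN1-3 (lower panel) from IM8A1-I in log2, 1 point per tested gene, with the list median as a bar and dotted lines at 2-fold. The 10 synthetases (red) all lie below 0 in both panels, the stress response regulators have the lowest medians (-0.90 and -1.17), and the medians of the endoplasmic reticulum (ER) list lie near 0.

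Most regulators of the integrated stress response shared the order of the synthetases within the XEN group. Of 16 tested regulators 13 had their highest XEN signal in IM8A1-I, against 29.1% of all tested probe sets. The medians were -0.90 in log2 for IM8A1-II and -1.17 for XEN1-3 against IM8A1-I (0.01 and 0.04 over all genes tested). The list was chosen with earlier results of these arrays known, so this shared order is a description. Atf4 read 776 units on the ES array and 3390.2, 1773 and 2084 on the IM8A1-I, IM8A1-II and XEN1-3 arrays. Ddit3 (CHOP), a stress-induced factor downstream of ATF4, read 115, 1512, 206 and 193 units, and Trib3, a pseudokinase of the same response, 81.7, 525, 119 and 60.3. The differences of IM8A1-II from IM8A1-I were -2.81 in log2 for Ddit3 and -2.05 for Trib3, wider than for any of the 10 synthetases. The exceptions to the order, named after their values were seen, were Eif2ak2, Eif2ak3 and Eif2ak4, each highest in IM8A1-II among the XEN arrays. Eif2ak3 read 59.2, 84.0, 137 and 98.0 units in the same order of arrays. Ddit4 was highest in IM8A1-I among the XEN arrays but lay below ES in all of them, at 705, 389, 208 and 160 units. Against ES 0 of the 16 regulators passed limma's test by their brightest probe set (before adjustment, 2 were higher and 1 was lower at p under 0.05). The shares of all tested probe sets called were 5.58% higher and 5.05% lower. Atf3, a stress-induced transcription factor, had the smallest p among these brightest probe sets. Its brightest probe set read 51.2 units on the ES array and 1551, 1035 and 288 on the IM8A1-I, IM8A1-II and XEN1-3 arrays (3.67 ± 0.88 in log2, adjusted p = 0.0558), and passed without XEN1-3 (0.00129) and with the filter at the 60th percentile (0.0492). A further Atf3 probe set, at 37.8 units in ES and 469, 314 and 237 in XEN, passed in the main test (2.81 ± 0.42, adjusted p = 0.0171). Atf4 had a difference of 1.57 ± 0.41 (adjusted p = 0.0655), and passed with each XEN line counted once (0.0443) and without XEN1-3 (0.0481). The part of these regulators in the synthetase values was not tested.

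Amino acid supply genes showed the same order in most members. Of 10 tested genes of amino acid and one-carbon synthesis, 7 were highest in IM8A1-I among the XEN arrays, against 29.1% of all tested probe sets. In limma's test 0 were called against ES (3 higher at an unadjusted p under 0.05), where 5.58% of tested probe sets were called higher and 5.05% lower. These lists were chosen with earlier results of these arrays known, so the counts are descriptions. Asns, for asparagine synthetase, which makes the substrate of the Nars enzyme, read 2624 units on the ES array and 3704, 1979 and 2108 on the IM8A1-I, IM8A1-II and XEN1-3 arrays, close to the Nars pattern but with ES above the lower XEN cultures. Aldh18a1, an enzyme of proline synthesis, read 78.3, 492, 159.5 and 137 units. Of 11 tested amino acid transporters 8 were highest in IM8A1-I among the XEN arrays, against the same 29.1%. The large neutral amino acid carrier Slc7a5 read 732, 2844, 642 and 920 units and its partner Slc3a2 1089, 3811, 1283 and 2090.3. Aldh18a1, Slc7a5 and Slc3a2 were named after their values were seen. Against ES, Slc7a6 rose (2.15 in log2, adjusted p = 0.0267), while Slc7a3 fell by at least 12.4-fold, to values under the background limit. Slc38a4 also fell (adjusted p = 0.00567), from 635 units to 26.0, 13.4 and 30.2 in XEN, too near the limit for the size of the fall to be given. The call for Slc7a6 was lost when IM8A1-I was left out (adjusted p = 0.0736) and when dim values were set at the background limit (0.0817). A further Slc7a6 probe set also passed limma's main test (1.82 in log2, adjusted p = 0.0319). It was dim, at 3.0 units in ES and 40.9, 32.7 and 37.9 on the IM8A1-I, IM8A1-II and XEN1-3 arrays.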

How the data were processed

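Signal was measured on 4 Affymetrix MG_U74Av2 arrays, chip type per the file headers. The authors deposited 1 linear intensity value per probe set and array, already scaled to a common level (2% trimmed means of 150.09 to 150.1). Which software summarised the probes is not stated in the sources used here. Run records (other text, per the file headers) gave chip lot, run day and fluidics messages.

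Each array was set to the same 2% trimmed mean before 10.5 units (the 25th percentile) were added and log2 was taken. Folds are on this scale, which understates changes of dim genes. Probe sets with at least 1 array at the background limit (40th percentile, 27.3 units) were tested, 8582 without controls. The 19 controls for sequences absent from mouse cells stayed under it on every array. The test of XEN against ES was that of limma 3.58.1 (R 4.3.3), with lmFit and a trended eBayes (residual degrees of freedom 2, prior 3.76; two-sided, Benjamini-Hochberg over all tested probe sets, threshold 0.05). The 1 ES array is assumed to vary as the XEN arrays do. The spread behind the p-values is that among the 3 XEN cultures of 2 lines, which also differ in medium. It holds no spread between ES cultures. The code was tested on simulated data. Comparisons within XEN have 1 array a side and no test.

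Symbols came from the platform annotation, where 10833 probe sets carry 1 symbol, 396 several and 1193 none, controls left out. The brightest tested probe set by mean log2 stood for a gene. Every member was described. Of each other list up to 4 genes with the smallest p could be named, with Atf4, Ddit3, Trib3, Asns, Hspa5 and Xbp1, and the 5 genes nearest to the members' median profile. Members and lists were chosen with earlier results of these data known. Promoters are from RefSeq, GRCm38.p6, printed up to the start. No protein sequence was used here. Figures used matplotlib 3.10.9.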

Additional observations from a re-analysis of the deposited data

How the results depend on the processing

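Wars (98606_s_at) was the 1 gene of the 10 called higher, and 0 were called lower, under every alternative run: offsets, filters, values raised to the limit, scaling, no variance trend, each XEN array left out, each XEN line counted once and the mean over probe sets. Its adjusted p ranged from 0.00920 to 0.0456. Its estimate ranged from 1.76 to 2.21 in log2. Of 165 alternative values of the 13 member probe sets, 158 kept their direction and side of the threshold, 1 passed newly and 6 changed sign, all of them in genes near 0 that no setting called. Gars was at -0.070 with median scaling and ranged from -0.092 (without IM8A1-I) to 0.11 with 1 XEN array left out. On the same terms Yars ranged from -0.46 to 0.044 and Iars from -0.21 to 0.042. Yars was at 0.070 with the mean over probe sets. Among 46 other genes, leaving out 1 XEN array gave -0.36 to 0.090 for Asns, -0.90 to 0.15 for Rars, -0.35 to 0.41 for Hars and -0.064 to 0.36 for Psat1, and Hars was at -0.011 with median scaling.

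Over all probe sets 479 were called higher and 433 lower. Leaving out 1 XEN array gave 185 to 778 higher (fewest without IM8A1-I, most without XEN1-3) and 181 to 710 lower. With values raised to the limit 240 were higher. In the 9 other pathway lists 9 genes were called higher, and 3 to 17 with 1 XEN array left out. Within XEN, all 10 genes stayed highest in IM8A1-I under each scaling, offset and floor tried. The median against IM8A1-I was -0.58 for IM8A1-II with median scaling and -0.34 for XEN1-3 with quantile normalization, and 0 genes were at least 2-fold lower in IM8A1-II with an offset of the 50th percentile. With 4 arrays, 1 of them ES, precision is limited by the number of arrays.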

Other observations

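Genes of protein folding in the endoplasmic reticulum did not share the order of the synthetases among the XEN cultures. Of 14 tested genes 7 rose in XEN, 0 fell and 7 did not pass, by their brightest probe sets. Of all tested probe sets 5.58% were called higher and 5.05% lower. The list had a median of 1.47 in log2, against 0.03 over all genes tested. Among the 7 that did not pass, the co-chaperone gene Dnajc3 (1.44 in log2, adjusted p = 0.0929) had 2 further probe sets that passed, at 2.07 and 2.27 (adjusted p of 0.0136 and 0.0144). Over the list the median between the IM8A1 cultures was 0.00, and 5 of 14 were highest in IM8A1-I among the XEN arrays (29.1% of all tested probe sets). Hspa5 (BiP), the main chaperone of that compartment, read 1040.1 units on the ES array and 4434, 3937 and 3477 on the IM8A1-I, IM8A1-II and XEN1-3 arrays (1.91 ± 0.26 in log2, limma adjusted p = 0.0138). It did not pass without IM8A1-I (0.0506). Xbp1, a transcription factor of the unfolded protein response, rose by 2.06 ± 0.27 (adjusted p = 0.0120), and the disulfide isomerase gene Pdia3 rose 3.99-fold (adjusted p = 0.0109).

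Elongation factors of translation showed 0 calls among 4 tested genes in limma's test (1 lower at an unadjusted p under 0.05). The shares over all tested probe sets were 5.58% higher and 5.05% lower. None of the 4 was highest in IM8A1-I among the XEN arrays (29.1% of all tested probe sets). Eef1d, a subunit of the exchange factor that recharges the elongation factor, read 1369 units on the ES array and 564, 491 and 847 on the IM8A1-I, IM8A1-II and XEN1-3 arrays.

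The 5 genes whose differences from ES in the 3 XEN arrays lay nearest to the median profile of the 10 synthetases were Slc6a9, Nme6, Abce1, Nipbl and Hoxa4, out of 4663 genes that reached the 60th percentile of signal. Their root mean square distance was 0.05 to 0.07 in log2. Slc6a9, a glycine transporter, read 236 units on the ES array and 313, 202 and 214 on the IM8A1-I, IM8A1-II and XEN1-3 arrays, and Abce1, a ribosome recycling factor, 802, 979, 637 and 745. With 3 differences per gene, many genes lie near any such profile.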
